A study of Danio rerio with 16 samples.

Results

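The genes described here make, modify, carry or burn lipids in the adult zebrafish brain. They were chosen by symbol, as those beginning with the names of cholesterol synthesis enzymes and their regulators, fatty acid desaturases, elongases, activating and oxidizing enzymes, apolipoproteins, ABCA transporters and fatty acid binding proteins, with fabp7a left out. This gave 33 genes, measured by 40 probe sets, of the 4922 genes that carry a single symbol among the 7922 probe sets tested. Where a gene had several probe sets, the one of highest mean over the 16 arrays stood for it. Genes that the same names would take in but that are not in the table, such as hmgcra, ldlr and sqlea, were not analysed here.

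The brain makes nearly all of its own cholesterol, which in mammals goes largely into myelin and cell membranes. In vertebrates the enzymes of this pathway are switched on together by the transcription factor SREBP when membrane sterol is low, and INSIG proteins hold SREBP back in the endoplasmic reticulum when sterol is plentiful. Apolipoprotein E, made mostly by glia in mammals, carries cholesterol between brain cells, while NPC proteins let it out of lysosomes. Fatty acids enter membranes or mitochondria only after acyl-CoA synthetases have activated them.

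Brain RNA was measured on 16 Affymetrix arrays, each from a pool of 2 to 5 adult fish of 1 sex that had shared a tank, at 4 to 6 months of age. The labels name 4 strains with 2 female and 2 male pools each: TM1 and SH, labelled domesticated, and Nadia and Gaighatta, labelled wild. All fish were bred and kept in 1 facility and had gone through a behavior assay before sampling, and TM1 is described in the study's methods as carrying a GFP transgene. Replicates are separate tank pools, so the p-values measure the spread between pools.

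The strain labels are in doubt, and every direction below follows the deposited label. A table printed with the study gives other names to the same arrays: its Gaighatta is the strain labelled TM1, its Nadia is SH, its SH is Nadia and its TM1 is Gaighatta. The match held for 1645 of 1645 rows compared, within 0.0001, and the sex agreed in 16 of 16 arrays. A GFP probe set read 8.58 to 10.46 in the pools labelled Gaighatta and at most 3.36 in the other pools, so the library labels of these 4 pools go against the transgene. Under the names of the printed table the strain pairs are the same sets of pools under other names, and each difference between wild and domesticated strains below has the opposite sign.

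Values over the whole table ran from 2.27 to 13.23 on the log2 scale, and array medians from 6.08 to 6.2. Pools of 1 strain correlated at 0.967 to 0.988 and pools of different strains at 0.936 to 0.980 across probe sets, which are not independent replicates. Neuronal and radial glial markers were present in every pool, with a mean over 3 neuronal markers of 9.82 to 10.57 and over 6 radial glial markers of 9.92 to 10.58. Markers of pituitary, meninges and vessels, and microglia did not stand level across the pools. Over pomca, prl, gh1 and cga, 4 of the 7 pituitary markers listed, the mean was 3.89 to 4.69 in TM1, 4.32 to 9.18 in SH, 4.33 to 8.27 in Nadia and 3.51 to 4.75 in Gaighatta. The mean of 5 markers of meninges and vessels was 6.13 to 6.86 in TM1, 7.25 to 7.68 in SH, 7.03 to 7.63 in Nadia and 6.64 to 7.29 in Gaighatta. The mean of 6 markers of microglia and leukocytes was 8.0 in the TM1 pool M1 and 7.81 in M2, against 6.65 to 7.27 in the other 14 pools. The same TM1 M1 pool had the lowest neuronal mean and a liver marker, tfa, at 6.50, against 3.56 to 4.81 elsewhere.

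Strain differences among the lipid genes were mostly below 2-fold. Of the 33 genes, 16 (48.5%) differed between at least 1 pair of strains in limma at an adjusted p under 0.05, against 34.6% of all probe sets tested. Cholesterol synthesis contributed 5 of its 5 genes, fatty acid desaturation and elongation 2 of 4, fatty acid activation 1 of 4, mitochondrial oxidation 5 of 11, the apolipoproteins 2 of 3, and sterol regulation and uptake 1 of 3. Neither ABCA transporter (abca7, abca12) nor fabp2, the intestinal fatty acid binding protein, passed the test. The median of the largest difference between strain means was 0.41 over the 33 genes and 0.31 over all probe sets. Of the 16 genes, 1 (hmgcs1) reached 2-fold, as did 431 of the 2744 probe sets that differed.

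**Figure D1:**
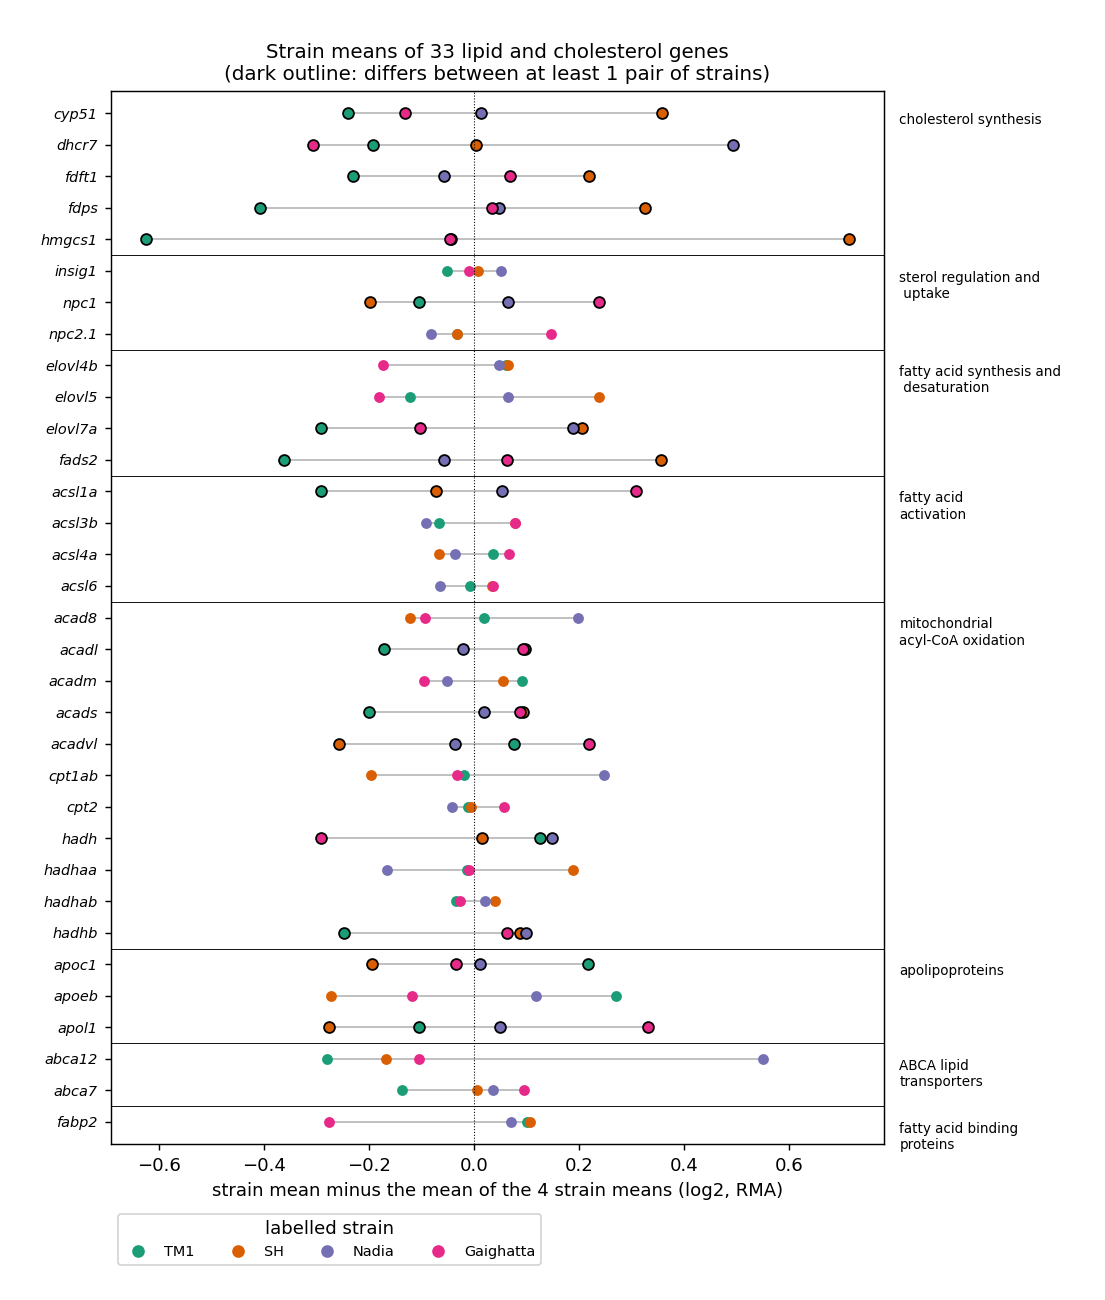
Strain means of the 33 genes, each as its distance from the mean of the 4 strain means (log2, horizontal axis), with genes on the vertical axis grouped by role. Points are means of 4 pools, and dark outlines mark the 16 genes that differed between at least 1 pair of strains. The widest spans belong to hmgcs1, abca12 and dhcr7.

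The pools labelled TM1 were the low end for many of these genes. Of the 16 genes that differed, 10 (62.5%) had their lowest strain mean in TM1, while TM1 was lowest in 29.3% of all probe sets that differed. SH had the highest mean for 8 of the 16, and for 20.9% of all probe sets that differed. In the direct comparison of TM1 with SH, 7 genes were lower in TM1 and 1 was higher, where 3.96% of all probe sets were lower and 2.68% higher. The 7 were hmgcs1, fdps, fdft1, cyp51, fads2, elovl7a and hadhb, and the 1 was apoc1.

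The other pairs gave fewer calls or calls in both directions. Against Nadia, TM1 was lower for 3 genes (background 2.06%) and higher for 0 (1.11%). At an unadjusted p under 0.05 the counts were 8 and 1, where 868 and 587 of the 7922 probe sets passed. Against Gaighatta, TM1 was lower for 5 (12.6%) and higher for 1 (8.27%). SH was higher than Gaighatta for 3 (7.71%) and lower for 4 (9.38%), and Nadia was higher for 2 (6.69%) and lower for 0 (7.59%). At an unadjusted p under 0.05 the counts for Nadia and Gaighatta were 4 and 3, against 1015 and 1197 probe sets. SH and Nadia gave 0 genes in limma in either direction (2.59% higher and 3.07% lower over all probe sets). At an unadjusted p under 0.05, 5 were higher and 7 lower, against 804 and 837 probe sets. Except for TM1 against SH, the shares at an adjusted p under 0.05 lie near those of the whole table or rest on 3 genes or fewer.

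The 5 enzymes of cholesterol synthesis among the 33 genes, from HMG-CoA synthase to the last step, each differed between strains. By the probe set of highest mean, 4 of the 5 were lowest in TM1 and highest in SH. hmgcs1, the synthase that makes HMG-CoA, had the largest difference of any of the 33 genes. In pools F1, F2, M1 and M2, the order used for all values below, hmgcs1 stood at 6.02, 5.82, 5.74 and 6.15 in TM1 and at 6.91, 7.09, 7.69 and 7.38 in SH. It stood at 6.32, 6.24, 6.65 and 6.85 in Nadia and at 6.13, 6.25, 7.26 and 6.40 in Gaighatta. The 4 TM1 pools lay below every SH and every Nadia pool, and a single Gaighatta pool, M1, reached the range of SH. The differences of Nadia from TM1 and from SH did not pass in limma (adjusted p = 0.17 and 0.0573). How often strains fail to overlap over all probe sets was not counted, here or below. The TM1 mean was 5.93 ± 0.19 (SD, n = 4 pools) and that of SH 7.27 ± 0.34, a difference of -1.34 (SE 0.22, adjusted p = 0.0022 in limma) or 2.53-fold. SH was also higher than Gaighatta, by 0.76 (SE 0.22, adjusted p = 0.0268), a call lost without any 1 of 5 pools (SH M1, SH M2, Gaighatta F1, Gaighatta F2 or Gaighatta M2). In bulk tissue, fewer cells of a type and less RNA per cell cannot be told apart.

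fdps, which makes farnesyl pyrophosphate, the branch point toward sterols, was 5.21, 5.08, 4.27 and 4.98 in TM1 and 5.58, 5.65, 5.80 and 5.44 in SH. The groups did not overlap, and the TM1 pool M1 was the lowest of all 16. The difference was -0.73 (SE 0.17, adjusted p = 0.019, 1.66-fold), with Nadia at 5.34 ± 0.19 and Gaighatta at 5.33 ± 0.22 between them. A second fdps probe set passed a different pair, TM1 below Gaighatta (a difference of -0.66, adjusted p = 0.0146), while its difference of -0.59 for TM1 and SH missed the threshold (adjusted p = 0.0554). There the TM1 pool M1 was not low, with TM1 at 4.17, 3.90, 4.17 and 4.07, and the highest strain mean was that of Gaighatta (4.74, against 4.67 in SH).

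fdft1, squalene synthase, the first enzyme committed to sterols, was tight in both end strains, at 5.10, 5.10, 5.03 and 5.18 in TM1 and 5.51, 5.48, 5.66 and 5.56 in SH. No pools overlapped. Its difference of -0.45 (SE 0.11, adjusted p = 0.0188) was the smallest of the 5 enzymes. Nadia spanned both groups, with 3 pools at 5.08 to 5.21 and M2 at 5.60, and Gaighatta lay at 5.21 to 5.50.

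cyp51, which demethylates lanosterol, was 5.13, 5.01, 5.21 and 5.13 in TM1 and 5.48, 5.55, 6.00 and 5.83 in SH. Again no TM1 pool reached SH, and the male SH pools were the highest 2 of the 16. The difference was -0.60 (SE 0.14, adjusted p = 0.0212, 1.51-fold), and SH exceeded Gaighatta by 0.49 (adjusted p = 0.027), where M1 stood at 5.62 and the other 3 pools at 5.04 to 5.14. Leaving out 1 of 3 pools (TM1 F2, SH M1 or SH M2) ended the call for TM1 and SH, and 1 of 5 (SH M1, SH M2, Gaighatta F1, Gaighatta F2 or Gaighatta M2) that for SH and Gaighatta. Both other cyp51 probe sets, close to the lower end of the table with means of 2.97 and 3.04, were called for TM1 below SH (differences of -0.67 and -0.48, adjusted p = 0.0469 and 0.0366) and for TM1 below Nadia (-0.86 and -0.53, adjusted p = 0.0209 and 0.0349). Their highest strain mean was that of Nadia (3.34 and 3.24, against 3.16 and 3.19 in SH). Neither was called for SH and Gaighatta in limma (adjusted p = 0.375 for both).

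dhcr7, the reductase of the final step to cholesterol, had another order. It was 6.40, 6.37, 6.70 and 7.03 in Nadia, above all 12 pools of the other strains, which lay at 5.48 to 6.34. Nadia exceeded Gaighatta by 0.80 (SE 0.17, adjusted p = 0.00529, 1.74-fold) and TM1 differed from Nadia by -0.69 (SE 0.17, adjusted p = 0.04). The second of these calls was lost without any 1 of 7 pools (TM1 F1, TM1 F2, TM1 M2, SH M2, Nadia M1, Nadia M2 or Gaighatta F2). SH, highest for the other 4 enzymes by their probe sets of highest mean, stood at 6.13 ± 0.20 here. Its difference from Nadia did not pass in limma (-0.49, adjusted p = 0.118).

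**Figure D2:**
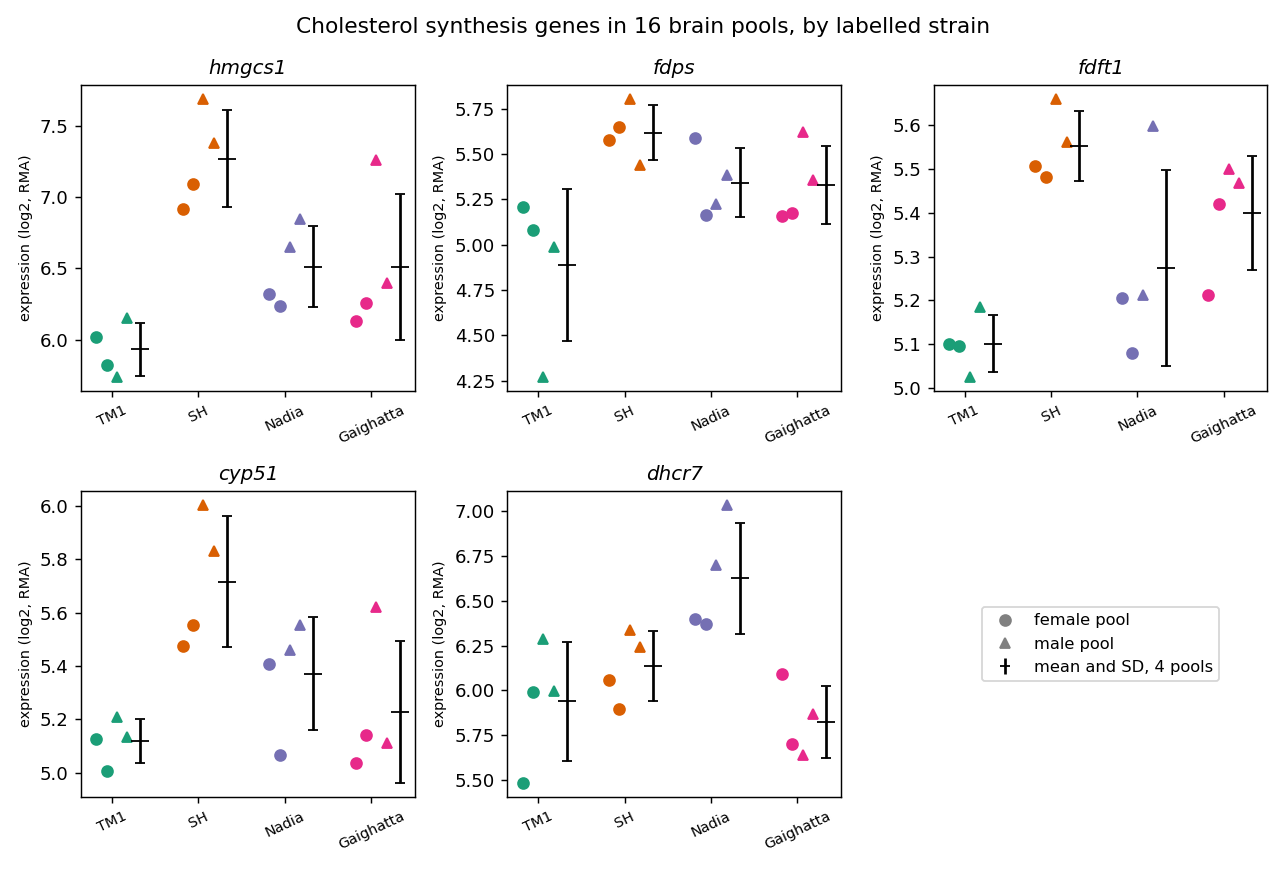
Expression (log2, RMA, vertical axis) of the 5 cholesterol synthesis genes in each of the 16 pools, by labelled strain (horizontal axis); circles are female and triangles male pools, bars are the mean and SD of 4 pools, and each panel has its own vertical scale. TM1 lies below SH without overlap for hmgcs1, fdps, fdft1 and cyp51, and Nadia lies above the others for dhcr7. Lack of overlap is not a call: acadl, acads, acadvl and apoeb also had none between TM1 and SH and did not pass there.

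Averaged over the 5 enzymes, the pools stood at 5.31 to 5.49 in TM1, 5.91 to 6.30 in SH, 5.58 to 6.08 in Nadia and 5.53 to 5.93 in Gaighatta. On this mean, TM1 overlapped none of the other strains, and SH overlapped Nadia and Gaighatta through their highest pools. Markers of other tissues also differed between TM1 and SH. The mean over meningeal and vessel markers was lower in every TM1 pool than in every SH pool, as given above, and 3 of its 5 genes (col1a1a, col1a2 and sparc) were called lower in TM1. The neuronal mean was also lower in every TM1 pool (9.82 to 10.28) than in every SH pool (10.30 to 10.47). Of neuronal, radial glial, myelin and red blood cell markers, 1 gene each (tubb5, gfap, cldnk and hbaa1) was called lower in TM1 than in SH. The mean of the 2 myelin markers measured was 7.81 to 8.16 in TM1 and 8.12 to 8.32 in SH. Pituitary markers averaged 7.24, 9.18, 4.32 and 6.44 in the SH pools and 3.89 to 4.69 in TM1. The part of these markers in the result was not tested. Without the 6 SH and Nadia pools whose pituitary mean was over 6, a choice made after seeing the data, the hmgcs1 difference was -1.76 with an adjusted p of 0.0561, resting on a lone SH pool, M1.

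insig1, the sterol-sensing brake on SREBP and in mammals itself a target of it, did not pass for any pair of strains. It stood at 7.24, 7.24, 6.60 and 7.39 in TM1, 7.38, 7.13, 6.88 and 7.33 in SH, 7.35, 7.10, 7.18 and 7.25 in Nadia, and 6.83, 6.93, 7.39 and 7.49 in Gaighatta. All 4 strains overlapped. Over its 3 probe sets the largest gaps between strain means were 0.10, 0.14 and 0.30, with adjusted p of 0.797, 0.654 and 0.441. The largest of the first probe set (TM1 against Nadia) had an SE of 0.18.

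npc1, the membrane protein that exports cholesterol from lysosomes, was 5.92, 5.72, 5.76 and 5.77 in SH and 6.23, 6.34, 6.35 and 5.98 in Gaighatta. These ranges did not overlap, with SH lower by a difference of -0.44 (SE 0.12, adjusted p = 0.0188), but the call was lost without Gaighatta F2 or Gaighatta M1. Its lysosomal partner npc2.1, which hands cholesterol to it, had a largest difference of 0.23 (adjusted p = 0.285), with strain means from 7.36 in Nadia to 7.59 in Gaighatta.

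Among the desaturases and elongases, the 2 genes that differed had their lowest mean in TM1 and their highest in SH. For elovl7a, Nadia was nearly level with SH (means of 7.34 and 7.36). fads2, the desaturase that starts the synthesis of long polyunsaturated fatty acids and is a target of SREBP in mammals, was 9.37, 9.04, 8.71 and 9.11 in TM1 and 9.62, 9.63, 9.95 and 9.90 in SH. It was 9.34, 9.13, 9.47 and 9.52 in Nadia and 9.40, 9.17, 9.56 and 9.79 in Gaighatta. SH stood above every TM1 and Nadia pool, and the difference between TM1 and SH was -0.72 (SE 0.15, adjusted p = 0.00966, 1.65-fold). That between SH and Nadia did not pass in limma (0.41, adjusted p = 0.127).

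elovl7a, an elongase of fatty acid chains, was 6.74, 6.90, 7.10 and 6.71 in TM1, 7.36, 7.26, 7.60 and 7.20 in SH, 7.11, 7.43, 7.43 and 7.39 in Nadia, and 6.90, 6.99, 7.26 and 7.04 in Gaighatta. TM1 lay below SH (-0.50, SE 0.12, adjusted p = 0.0209) and below Nadia (-0.48, adjusted p = 0.0361), with Gaighatta between them. The call against SH was lost without TM1 F1, TM1 M2, SH F1 or SH M1, and that against Nadia without TM1 F1, TM1 F2, TM1 M2, Nadia F2, Nadia M1 or Nadia M2. Of the other elongases, elovl5 had a largest difference of 0.42 (adjusted p = 0.276), with Gaighatta pools spread from 4.36 to 5.87, and elovl4b one of 0.24 (adjusted p = 0.285).

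acsl1a, a long-chain acyl-CoA synthetase, was the 1 of 4 fatty acid activating enzymes that differed, and all 3 of its probe sets did. The probe set of highest mean read 6.46, 6.56, 6.69 and 6.39 in TM1, 6.80, 6.93, 6.56 and 6.70 in SH, 6.68, 6.99, 7.04 and 6.77 in Nadia, and 7.02, 7.14, 6.96 and 7.39 in Gaighatta. Gaighatta lay above every TM1 and SH pool, by 0.60 for TM1 (a difference of -0.60, SE 0.12, adjusted p = 0.0021, 1.51-fold) and by 0.38 for SH (-0.38, adjusted p = 0.0347). The call against SH was lost without SH F1, SH M1, SH M2, Gaighatta F2 or Gaighatta M2. The other probe sets gave TM1 minus Gaighatta as -0.76 and -0.82 (adjusted p = 0.000407 and 0.000121). The 3 remaining synthetases were close to level: the largest difference was 0.17 for acsl3b, 0.13 for acsl4a and 0.10 for acsl6, which is known for its expression in brain.

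Of the 11 genes of mitochondrial acyl-CoA oxidation, which serve fatty acids except for acad8, an enzyme of valine breakdown, 5 differed, with TM1, SH or Gaighatta as the low strain depending on the gene. hadh, a hydroxyacyl-CoA dehydrogenase, was the 1 gene called between Gaighatta and each other strain. It read 6.37, 6.25, 6.34 and 6.47 there, against 6.84, 6.72, 6.68 and 6.88 in TM1, 6.62, 6.69, 6.56 and 6.80 in SH, and 6.71, 6.74, 6.88 and 6.87 in Nadia. The differences were 0.42 for TM1 (adjusted p = 0.0027), 0.31 for SH (adjusted p = 0.0204) and 0.44 for Nadia (SE 0.09, adjusted p = 0.00231). The call against SH was lost without SH M2 or Gaighatta F2.

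hadhb, the beta subunit of the trifunctional protein of long-chain oxidation, was called between TM1 and each other strain instead. It was 7.70, 7.58, 7.63 and 7.60 in TM1, below all 12 other pools at 7.78 to 8.10. The differences were -0.34 for SH (adjusted p = 0.0321), -0.35 for Nadia (adjusted p = 0.0425) and -0.31 for Gaighatta (adjusted p = 0.0205) and at most 1.27-fold. Leaving out any 1 of 11 pools, each TM1 pool among them, ended the call against Nadia. The call against SH was lost without TM1 F2, TM1 M2, SH F1, SH F2 or SH M2, and that against Gaighatta without Gaighatta M2. hadhaa and hadhab, the alpha subunit genes, did not pass, with largest differences of 0.35 and 0.07.

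acadvl, which starts the oxidation of very long chains, was lowest in SH, at 7.03, 6.83, 6.82 and 6.97, against 7.32, 7.36, 7.32 and 7.54 in Gaighatta. SH and Gaighatta differed by -0.47 (SE 0.11, adjusted p = 0.00527, 1.39-fold), with no overlap. The dehydrogenases of long and short chains, acadl and acads, were each lower in TM1 than in Gaighatta, with differences of -0.27 (adjusted p = 0.0458) and -0.29 (adjusted p = 0.045), and each call ended without any 1 of 11 pools for acadl and of 10 for acads, among them TM1 F2, TM1 M1, TM1 M2, SH F2, Nadia M1, Gaighatta F1, Gaighatta M1 and Gaighatta M2 for both. Neither medium-chain acadm (largest difference 0.19), cpt1ab (0.44), cpt2 (0.10) nor acad8 (0.32) passed. cpt1ab and cpt2 encode the carnitine palmitoyltransferases that bring long chains into mitochondria.

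apoc1, a small apolipoprotein of lipoprotein particles, had its highest mean in TM1 and its lowest in SH, the reverse of hmgcs1, fdps, fdft1 and cyp51. It was 10.62, 10.68, 10.60 and 10.48 in TM1 and 10.21, 10.34, 10.13 and 10.06 in SH, without overlap, a difference of 0.41 (SE 0.09, adjusted p = 0.0138, 1.33-fold). apoeb, an apolipoprotein E gene, also stood higher in TM1 (9.90, 9.86, 10.36 and 10.04) than in SH (9.26, 9.45, 9.73 and 9.56). Its difference of 0.54 did not pass (adjusted p = 0.221), and the highest 2 values of apoeb belonged to Nadia F2 at 10.47 and Gaighatta M2 at 10.57. In zebrafish apoeb is strongly expressed by microglia. Microglial and leukocyte markers averaged 7.11, 7.25, 8.0 and 7.81 in the TM1 pools and 7.05 to 7.27 in SH, and 0 of the 6 genes of that list were called between these strains. Their part in the apolipoprotein values was not tested.

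apol1 was highest in Gaighatta, at 6.59, 6.18, 6.09 and 6.17, against 5.65, 5.69, 6.07 and 5.88 in TM1, 5.63, 5.49, 5.73 and 5.76 in SH, and 6.00, 5.94, 6.03 and 5.93 in Nadia. Gaighatta overlapped none of the other strains, but its difference from Nadia did not pass in limma (adjusted p = 0.124). It exceeded SH by 0.61 (a difference of -0.61, SE 0.12, adjusted p = 0.00182, 1.52-fold) and TM1 by 0.44 (-0.44, adjusted p = 0.0143), the latter call being lost without Gaighatta F1.

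abca12, a lipid transporter of skin in mammals, had the second largest span between strain means, 0.83, but did not pass (SE 0.33, adjusted p = 0.192). The span rested on Nadia F2 at 6.29, since the other 3 Nadia pools stood at 4.26 to 4.56 and the 12 pools of other strains at 3.84 to 4.83. For abca7 the largest difference was 0.23 (adjusted p = 0.224), and for fabp2 it was 0.38 (adjusted p = 0.125).

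The study set strains with a long history in captivity against strains recently taken from the wild, and 3 genes differed by that labelled history. acsl1a, apol1 and npc1 were lower in the strains labelled domesticated, where 7.46% of all probe sets were lower, and 0 were higher, against 5.3%. At an unadjusted p under 0.05, 2 genes were higher, against 937 of the 7922 probe sets. The share lower among the 33 genes, 9.09%, lies near the background. acsl1a differed by -0.36 (SE 0.08, adjusted p = 0.00975), with strain means of 6.53 and 6.75 in TM1 and SH and of 6.87 and 7.13 in Nadia and Gaighatta. Its other probe sets gave -0.48 and -0.54 (adjusted p = 0.00146 and 0.00032). apol1 differed by -0.38 (SE 0.08, adjusted p = 0.0063), with strain means of 5.82 and 5.65 against 5.98 and 6.26. For npc1 the difference was -0.30 (SE 0.08, adjusted p = 0.0282), with means of 5.89 and 5.79 against 6.05 and 6.23, and 7 single pools each ended that call when left out.

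For none of the 3 were the 8 pools of one side all below the 8 of the other. The 2 strains on each side are the units of this comparison. With strain as a random block, with strain means as the samples, or without the strain labelled Gaighatta, 0 of the 33 genes were called. No cholesterol synthesis gene passed. TM1 and SH, both labelled domesticated, were at opposite ends for 4 of the 5 by their probe sets of highest mean. For hmgcs1 the difference by rearing history was 0.09 (SE 0.16, adjusted p = 0.742).

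**Figure D3:**
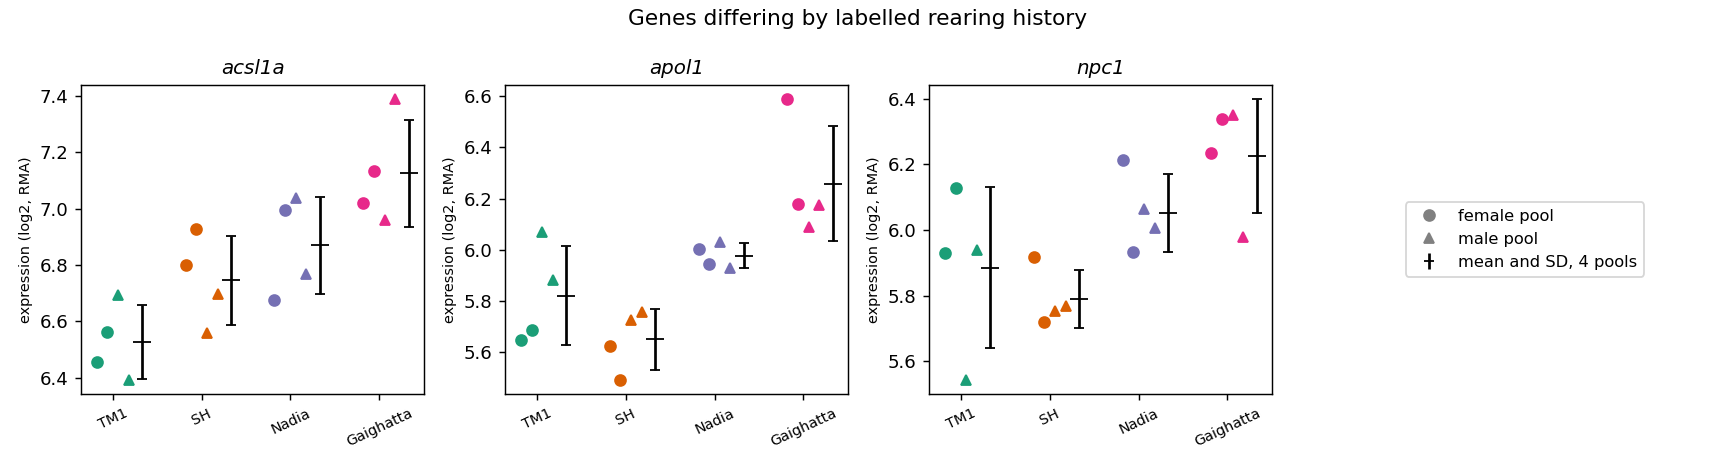
Expression (log2, RMA, vertical axis) of acsl1a, apol1 and npc1 in each of the 16 pools by labelled strain (horizontal axis); TM1 and SH are labelled domesticated, Nadia and Gaighatta wild, circles are female and triangles male pools, and bars are the mean and SD of 4 pools. Gaighatta is highest for each gene, and the pools of both sides overlap.

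Sex made no difference that passed the test. In limma, 0 of the 33 genes differed between males and females, against 0.126% of all probe sets higher and 0.0252% lower in males, and 0 showed an interaction of strain and sex (0.0757%). At an unadjusted p under 0.05, 3 genes, all cholesterol enzymes, were higher in males and 0 lower. Over the 7922 probe sets, 343 were higher and 627 lower, 970 in all. The interaction had 1 gene, fads2, against 359 probe sets. For sex with both directions together, and for the interaction, the share of the 33 genes is not larger than that of the whole table. For genes higher in males alone it is larger, but rests on 3 genes. hmgcs1 averaged 6.77 ± 0.66 in 8 male pools and 6.35 ± 0.44 in 8 female pools, a difference of 0.42 (SE 0.12, adjusted p = 0.243). By strain it was 0.03 in TM1, 0.53 in SH, 0.47 in Nadia and 0.64 in Gaighatta. cyp51 differed by 0.26 (SE 0.08, adjusted p = 0.301), with the male mean higher in each strain, by 0.10 in TM1, 0.40 in SH, 0.27 in Nadia and 0.28 in Gaighatta. dhcr7 also differed by 0.26 (adjusted p = 0.333), but its male mean was lower in Gaighatta (-0.14). fads2 had a male minus female difference of -0.29 in TM1 and of 0.30, 0.26 and 0.39 in the others (interaction adjusted p = 0.993).

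Between pools of the same strain, 2 of the 4 other cholesterol enzymes passed a test of co-variation with hmgcs1, with the share over all probe sets not counted. With each strain's mean subtracted, the deviations of hmgcs1 over the 16 pools were compared with those of the other 32 genes, a comparison chosen after the values were seen. P-values came from 100000 permutations of pools within strains and were adjusted over the 32 genes. How many of all probe sets vary as closely with hmgcs1 was not counted. The permutations exchanged male and female pools, so a sex difference shared by both genes enters these p-values. cyp51 correlated most closely, with r = 0.887 (permutation p = 0.00079, adjusted 0.0253) and rho = 0.809 (permutation p = 0.00229, adjusted 0.0368). fdft1 followed with r = 0.698 (permutation p = 0.00231, adjusted 0.0370) and rho = 0.765 (permutation p = 0.0023, adjusted 0.0368). Without the 2 pools farthest from the median of hmgcs1, Gaighatta M1 and SH M1, r was 0.772 for cyp51 and 0.742 for fdft1. With the means of each sex within each strain removed as well, r was 0.778 and 0.445. By that measure several genes of other roles exceeded fdft1 in size, among them acsl1a at -0.791, elovl5 at 0.686, apoc1 at 0.661 and npc1 at 0.593. The size for acsl1a also exceeded that for cyp51. No p-value was computed with the sex means removed. With 2 pools of each strain and sex, their deviations are then mirror images, so the 16 values are not independent. The Gaighatta male pools, at 7.26 and 6.40, lie farthest apart in hmgcs1. They weigh most in these r values, and in those for fdps and dhcr7 below.

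The other 2 enzymes of the pathway did not pass. fdps gave r = 0.479 (adjusted p = 0.258 by permutation), with 0.291 without those pools and 0.718 with the sex means removed as well. dhcr7 gave 0.104 (adjusted p = 0.886 by permutation), and -0.440 with the sex means removed, opposite in sign to the other enzymes. insig1 gave 0.278 (adjusted p = 0.801), acsl6 0.578 and fads2 0.576 (both adjusted p = 0.258). Each gene entered by its probe set of highest mean, and the other probe sets of insig1 and fdps were not compared. In another insig1 probe set, Gaighatta M1 stood at 7.33 and the other Gaighatta pools at 6.69 to 6.74. In the remaining one, it stood at 7.22 and the others at 6.50 to 7.07. Gaighatta M1 shows the pattern for cyp51 in 1 pool: its hmgcs1 of 7.26 and cyp51 of 5.62 each stood well above the other 3 pools of that strain. Its fdft1 of 5.50 was close to the 5.47 of Gaighatta M2, and its dhcr7, at 5.64, was the lowest of that strain.

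**Figure D4:**
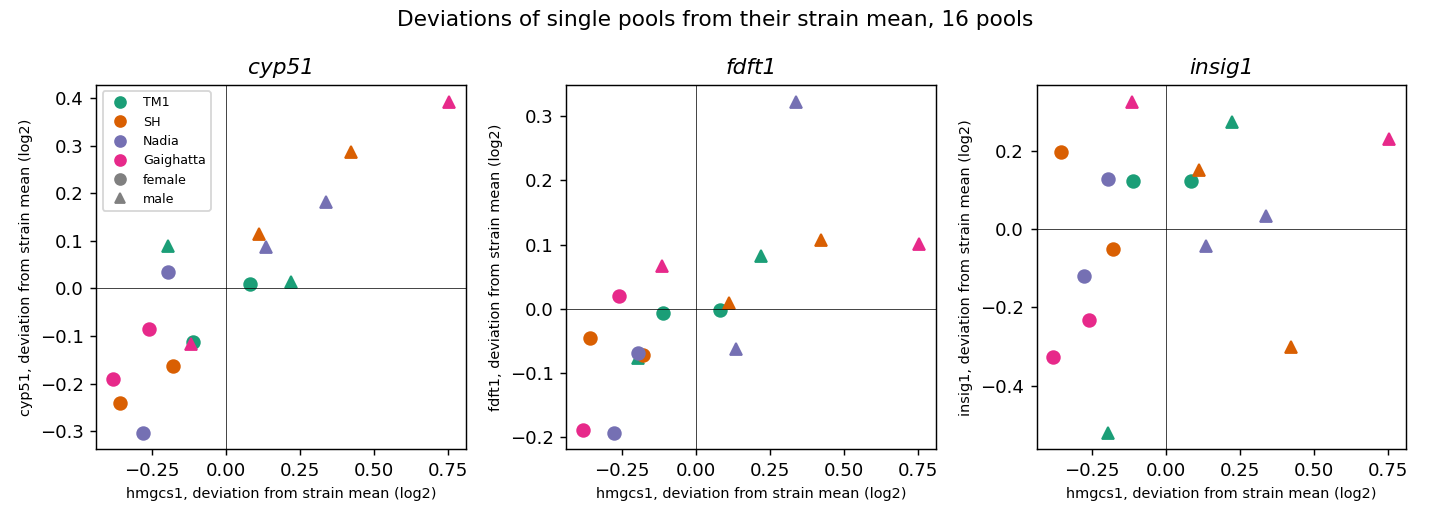
Deviation of each of the 16 pools from its strain mean (log2) for cyp51, fdft1 and insig1 (vertical axes) against that for hmgcs1 (horizontal axes); colors are labelled strains, circles female and triangles male pools. Points rise together for cyp51 (r = 0.887) and fdft1 (r = 0.698). For insig1, shown by its probe set of highest mean only, r was 0.278.

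Genes of lipid metabolism outside the symbol rule were taken from 3 lists. Of 37 other sterol genes listed, 10 were measured and 5 differed between strains (msmo1, acat2, lbr, vldlr and mvk). The count was 6 of 13 for other fatty acid genes and 6 of 12 for glycerolipid and sphingolipid genes (background 34.6%). A second lbr probe set of nearly equal mean (5.80 against 5.84) was not called for any pair. mvk, at a low mean of 4.07, was called for 1 pair, TM1 and Gaighatta (adjusted p = 0.0378 in limma). Within the sterol list, TM1 was lower than SH for 3 genes and higher for 0. The 2 with the largest differences were enzymes of the same pathway as hmgcs1. msmo1, a methylsterol oxidase that acts later in the pathway than cyp51, was 6.13, 5.48, 5.46 and 6.03 in TM1 and 6.70, 6.91, 7.84 and 6.99 in SH. All 12 pools of the other strains lay above the 4 TM1 pools, and the differences were -1.33 for SH (SE 0.28, adjusted p = 0.00924), -1.19 for Nadia (adjusted p = 0.0239) and -0.98 for Gaighatta (adjusted p = 0.0191). acat2, the thiolase that makes the substrate of hmgcs1, was 7.42 to 8.08 in TM1 and 8.39 to 8.56 in SH, without overlap (-0.59, SE 0.14, adjusted p = 0.0175).

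The phospholipid and sphingolipid genes had other orders of strains, and the largest difference of the 3 lists was among them. pcyt1aa, which catalyzes the rate-limiting step of phosphatidylcholine synthesis, was 6.27, 5.61, 5.71 and 5.54 in SH against 4.14 to 4.21 in Gaighatta, a difference of 1.60 (SE 0.15, adjusted p = 1.27e-06). psap, the precursor of the saposins that aid lysosomal sphingolipid breakdown, was lowest in Gaighatta at 8.96, 8.97, 8.83 and 9.37, and Nadia exceeded it by 1.27 (SE 0.14, adjusted p = 1.35e-05). cers2a, a ceramide synthase, was 4.27 to 5.23 in Nadia and 5.48 to 6.39 in Gaighatta (Nadia minus Gaighatta -1.17, SE 0.20, adjusted p = 0.000742). kdsr, an early enzyme of ceramide synthesis, was also higher in Gaighatta than in Nadia (-1.06, SE 0.16, adjusted p = 0.000299), at 8.35 to 8.41 against 6.93 to 7.83.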

How the data were processed

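Brain RNA of 16 pools was hybridized to Affymetrix zebrafish arrays, 1 array a pool, from 10 µg of total RNA. The authors summarized the arrays by RMA in the affy package (versions not given in the sources used here), which corrects background, normalizes quantiles across arrays and combines the probes of a set. The deposited values are therefore on the log2 scale, with array distributions made alike before filtering, so a shift common to most genes would not be seen. The table held 7958 rows, of which 36 control rows were left out. Of the 7922 probe sets tested, 854 had an interquartile range of at least 0.5, so the table was not restricted to variable probe sets. The study's filter on probes polymorphic between strains needs single probe values and was not applied. The study removed a large part of these rows by it, so calls and backgrounds here include probe sets that it left out. Its printed list of strain differences, made after that filter, was not searched for the genes called here. The part of probe polymorphism in any strain difference was not tested.

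Strain means were fitted in limma 3.58.1 (R 4.3.3) with contrasts for the 6 pairs and for domesticated minus wild, and sex and its interaction in a factorial model. P-values were adjusted by Benjamini-Hochberg over all 7922 probe sets within each contrast, with a threshold of 0.05. The fits were tested on simulated data. The 4 arrays per strain limit the precision. The genes, roles, lists and tests were chosen with earlier results of these data known. Values are given for the cholesterol synthesis and sterol regulation genes, the 12 largest strain differences among called genes, up to 8 genes called by rearing history or sex, genes whose probe sets differ in call and the 6 largest among other lipid genes. Genes beyond that rule (acadl, acads and those that did not pass) were added after their values were seen. Gene names come from the platform annotation. Alternatives covered filters, array centring, variance moderation, sex as a covariate, the replicate block, probe set choice, a stricter threshold, strain as the unit and leaving out each pool, the strain labelled Gaighatta or, added after seeing the data, the pools with pituitary markers. Probe sequences and coordinates were not used here.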

Additional observations from a re-analysis of the deposited data

Results flagged for a closer look

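In each strain and for each of the 33 genes, a pool was marked when its gap to the nearest other pool exceeded Dixon's critical share of the range of the 4 pools. Of 132 such sets, 6 were marked, where chance marks about 1 in 20. The lipid transporter abca12 stood at 6.29 in Nadia F2, with the other 3 Nadia pools at 4.26 to 4.56. The elongase elovl7a was 7.11 in Nadia F1 against 7.39 to 7.43. hadhab, an alpha subunit of the trifunctional protein, was low in TM1 M1 at 6.75 (others 7.25 to 7.32) and in Nadia F2 at 7.06 (others 7.26 to 7.28). acsl4a was 7.12 in SH M1 against 7.48 to 7.49, and fabp2 was 6.68 in SH F2 against 6.92 to 6.96. Of these pools, TM1 M1 was also the one with the lowest neuronal and highest microglial marker means.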

How the results depend on the processing

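The 16 genes called between strains, and the 8, 3, 6, 0, 7 and 2 called for TM1 and SH, TM1 and Nadia, TM1 and Gaighatta, SH and Nadia, SH and Gaighatta, and Nadia and Gaighatta, were refitted under each alternative. Named genes were followed for their largest strain pair or by rearing history. Of these refits, 449 kept direction and call status, 54 kept the direction and lost the call, and 1 turned. The 449 include differences never called: acadl and acads for TM1 and SH, npc2.1 and insig1. Losses of the acadl and acads calls for TM1 and Gaighatta are not among the 54. The 1 that turned was insig1 for TM1 minus Nadia, not called in either fit. It was -0.10 with all pools and -0.30 with its probe set of lowest mean. Over the fits without 1 pool it ran from -0.19 (without TM1 M2) to 0.072 (without TM1 M1, adjusted p = 0.877). Restricting the table to an interquartile range of at least 0.5 left 3 of the 33 genes to test, of which 1 was called in all, 1 each for TM1 and SH, SH and Nadia, and SH and Gaighatta, and 0 for the other pairs and by rearing history. An adjusted p under 0.01 left 7 genes, with 2, 0, 2 and 2 for TM1 and SH, TM1 and Nadia, TM1 and Gaighatta, and SH and Gaighatta. Centring arrays on their medians gave 1 for TM1 and Nadia and 1 for SH and Nadia. Sex as a covariate gave 10 for TM1 and Gaighatta and 1 for SH and Nadia. The probe set of lowest mean gave 5 for TM1 and Nadia and lost the fdps call, and all 40 probe sets gave 6 for TM1 and Nadia and 5 by rearing history. By rearing history (3 genes), strain as a random block gave 0, as did strain means as the samples (0 of the 33 genes and 313 of all probe sets at an unadjusted p under 0.05, 0 called). Without the strain labelled Gaighatta, 7 genes differed between strains and 0 by rearing history. Without the 6 pools with pituitary markers over 6, added after seeing the data, SH and Nadia kept 1 pool each, assumed to vary like the other groups. The counts were then 3 between strains (acsl1a, hadh and hadhb), 3 for TM1 and Gaighatta, and 0 for the other pairs and by rearing history. The cause of these changes was not tested, beyond the fewer genes or pools that enter.

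Leaving out each pool in turn gave 13 to 17 genes between strains, 6 to 9 for TM1 and SH, 4 to 8 for TM1 and Gaighatta, 2 to 3 for Nadia and Gaighatta and 2 to 4 by rearing history. TM1 and Nadia ranged from 0 to 3, with 0 without TM1 F1, TM1 F2, TM1 M2 or Nadia M2, and 1 without Nadia F2, Nadia M1 or Gaighatta F2. SH and Nadia ranged from 0 to 3, with 3 without SH F1, 2 without Nadia M2, and 1 without SH M1, Nadia M1 or Gaighatta M1. SH and Gaighatta ranged from 2 to 7, with 2 without Gaighatta F2, 3 without SH M2, and 4 without SH M1 or Gaighatta M2. By sex the range was 0 to 1 (hmgcs1, adjusted p = 0.0478, without Gaighatta M2), and for the interaction 0 to 1 (abca12, adjusted p = 0.0166, without Nadia F1). With the replicate block, 14 genes differed between strains, 4 for TM1 and Gaighatta and 3 by rearing history. Same-numbered pools did not deviate together (correlations of -0.29 to 0.31 over 28 pairs of groups, 6 above 0.1), so the numbers do not pair the pools. Signal over background could not be set per probe set, since the table holds no detection calls.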
